A study of Mus musculus with 12 samples.

Results

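ICF syndrome (immunodeficiency, centromeric instability, facial anomalies) is an inherited human disorder caused by mutations in the gene of any of 4 proteins: ZBTB24, CDCA7, HELLS or DNMT3B. The mouse genes Zbtb24, Cdca7, Hells and Dnmt3b are described here in splenic B cells. They were chosen as the genes mutated in the syndrome, and they are 4 of the 46078 genes counted. All 4 were matched by GENCODE symbol and passed the filter on low counts in every comparison.

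The mice, 6 in all, were C57BL/6 and 8 to 12 weeks old. Follicular (FO) B cells recirculate between lymphoid follicles, and marginal zone (MZ) B cells stay at the edge of the splenic white pulp. Both were isolated from spleen with a magnetic kit, giving 12 libraries with 3 in each group. Control mice carried VAVcre, a Cre recombinase transgene active across blood-forming cells, and their genotype is labelled WT. CKO mice carried VAVcre with a conditional Zbtb24 allele, and their genotype is labelled Zbtb24-/-. Both genotypes thus carry the Cre, and because it acts throughout blood formation the other blood cells of the CKO mice are targeted too. Whether the control mice also carried a floxed allele is not stated. Control replicates 1 to 3 carry the animal numbers 1505, 1507 and 2003, and CKO replicates 1 to 3 carry 1512, 1514 and 2002. Each number occurs once in FO and once in MZ, which is read here as 1 mouse.

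Sequencing gave 36340116 to 44629250 reads assigned to genes per library. Levels are given as CPM (counts scaled to library size), and a further 43.2 to 50.4% of listed reads named no gene. Summed over 4 FO markers, the FO libraries held 2252 to 2518 CPM and the MZ libraries 647 to 877 CPM. Summed over 6 MZ markers, the MZ libraries held 5066 to 6624 CPM and the FO libraries 1144 to 1664 CPM, so the labels and the markers match. Mouse 1514 (CKO replicate 2) stood apart in both cell types. Its summed level of 15 mitosis genes was 517 CPM in FO and 707 CPM in MZ, against 118 to 400 CPM in the other 10 libraries. It also had the highest summed erythroid markers (241 and 204 CPM) and neutrophil markers (386 and 235 CPM) within each cell type. None of the markers in these lists was at 0 in any library. Results are therefore given with and without that mouse where it matters.

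The 4 proteins act on DNA methylation, the addition of methyl groups to cytosine that keeps repeats near centromeres silent. ZBTB24 is a zinc finger protein that binds DNA and activates transcription, and CDCA7 is its best known target gene. CDCA7 is a zinc finger protein that brings HELLS to chromatin. HELLS (also called LSH) is a nucleosome remodeller of the SNF2 family that opens packed DNA to methyltransferases, and DNMT3B is a de novo DNA methyltransferase. Mutations in each of the 4 lead to loss of methylation at repeats near centromeres, and patients have low antibody levels although B cells are present. CDCA7 and HELLS are also known as genes that dividing cells express under control of E2F factors.

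In the GENCODE annotation of GRCm38 all 4 genes are protein coding and lie on the plus strand. Zbtb24 (ENSMUSG00000019826) lies at chr10:41450383-41465574, Cdca7 (ENSMUSG00000055612) at chr2:72476159-72486893, Hells (ENSMUSG00000025001) at chr19:38930915-38971051 and Dnmt3b (ENSMUSG00000027478) at chr2:153649450-153687730. The sequence before the start of Cdca7 is shown first, because it is the gene whose level differed most between the genotypes. The 190 bases come from RefSeq on GRCm38.p6, plus strand, chr2:72475969-72476158, and end where the GENCODE gene begins, 60 bases before the RefSeq start. The capitals mark CAGGACCT, the inner part of a ZBTB24 binding motif, at position -89 from the RefSeq start and GCGGGAAA, an E2F motif read on the other strand, at position -71.

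Cdca7: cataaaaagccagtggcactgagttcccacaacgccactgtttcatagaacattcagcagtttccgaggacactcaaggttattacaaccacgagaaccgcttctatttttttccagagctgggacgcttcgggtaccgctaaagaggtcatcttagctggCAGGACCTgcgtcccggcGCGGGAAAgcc

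Hells held an E2F motif (TTTCCCGC, in capitals) at position -62 from its RefSeq start. The GENCODE gene begins 75 bases before that start, so this match lies inside the GENCODE gene, unlike the matches of Cdca7. The 30 bases around the match are shown to set it beside Cdca7 (plus strand, chr19:38930917-38930946).

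Hells: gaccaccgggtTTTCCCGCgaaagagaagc

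Searched on both strands in windows from 250 bases before to 50 bases after a RefSeq start, CAGGACCT occurred in 1.99% of 32851 windows and, of the 4 genes, in Cdca7 alone. The longer form CCAGGACCT, which contains CAGGACCT, occurred in 0.584% of windows and in none of the 4. TTTCCCGC occurred in 1.07% of windows, among them those of Cdca7 and Hells, and a second E2F form, TTTGGCGC, in 0.514% and none of the 4. The E-box CACGTG occurred in 7.15% of windows, with 1 match in Zbtb24 at position 6 after the start. The Dnmt3b window held none of these letters. Each of the 4 genes had 1 window, the shorter ZBTB24 form was chosen after the Cdca7 sequence had been seen, and a match is not evidence of binding.

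Zbtb24 is the gene targeted in the CKO mice, and reads from it were present in all 6 CKO libraries. In FO B cells the control libraries held 62.5, 60.8 and 60.8 CPM and the CKO libraries 48.3, 46.9 and 50.01 CPM. In MZ B cells the control libraries held 49.1, 52.9 and 54.4 CPM and the CKO libraries 46.4, 41.8 and 41.9 CPM. Within each cell type the CKO libraries were all under the controls, without overlap. Relative to the control mean, CKO libraries averaged 78.9 ± 2.56% in FO and 83.1 ± 5.04% in MZ B cells (SD, n = 3). The log2 fold change was -0.34 (95% interval -0.47 to -0.21, adjusted p = 0.1943) in FO and -0.27 (-0.45 to -0.09, adjusted p = 1) in MZ. Neither passed edgeR's quasi-likelihood test. With DESeq2 the FO difference passed (log2 fold change -0.34, adjusted p = 0.001042), while the MZ difference passed in none of the alternatives run. The counts cover the whole gene and do not separate exons that Cre removes from those it leaves, so this level does not check the deletion. In these sorted bulk samples, fewer cells that express a gene and less RNA per cell cannot be told apart.

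Cdca7 had the lowest log2 fold change of all 17777 genes tested in FO and of all 17658 tested in MZ B cells. The FO control libraries held 31.6, 33.8 and 32.4 CPM, and the FO CKO libraries 1.01, 2.64 and 0.550 CPM, from 45, 105 and 21 reads. The MZ control libraries held 33.1, 42.4 and 33.7 CPM, and the MZ CKO libraries 2.76, 5.37 and 1.88 CPM, from 111, 211 and 68 reads. In both cell types the groups lay far apart, and among the CKO libraries mouse 1514 was highest and mouse 2002 lowest. Relative to the control mean, the CKO libraries averaged 4.29 ± 3.38% in FO and 9.16 ± 4.99% in MZ (SD, n = 3).

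The log2 fold change of Cdca7 was -4.54 (SE 0.596, 95% interval -6.12 to -2.95) in FO and -3.45 (SE 0.423, -4.54 to -2.35) in MZ B cells. By edgeR's quasi-likelihood test with robust dispersion the adjusted p was 0.564 in FO and 0.2909 in MZ B cells, so the gene did not pass over all genes tested. It passed in both cell types with DESeq2 (adjusted p = 6.384e-10 in FO and 5.062e-11 in MZ) and with limma-voom (0.004527 and 0.004546). It also passed in both with edgeR without robust dispersion (adjusted p = 0.01771 and 0.01197). Without mouse 1514 it passed by edgeR's quasi-likelihood test as well, at -5.36 (adjusted p = 1.013e-05) in FO and -3.96 (9.893e-05) in MZ B cells. The 3 CKO libraries thus differed among themselves by up to 4.80 times in FO and 2.86 times in MZ, beside a difference from control of 23.2 times in FO.

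Hells did not part the genotypes. In FO B cells the control libraries held 15.2, 15.5 and 17.4 CPM and the CKO libraries 14.1, 20.7 and 13.1 CPM. In MZ B cells the control libraries held 22.4, 24.3 and 19.1 CPM and the CKO libraries 24.5, 30.4 and 20.98 CPM. The groups overlapped in both cell types, and mouse 1514 gave the highest value of each CKO group. The log2 fold change was 0.00 (95% interval -0.39 to 0.40, adjusted p = 0.9995) in FO and 0.20 (-0.11 to 0.52, adjusted p = 1) in MZ B cells. Without mouse 1514 it was -0.23 in FO and 0.05 in MZ, with no call in either.

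Dnmt3b, the methyltransferase gene, lay between 12.3 and 15.3 CPM in all 12 libraries. In FO B cells the control libraries held 14.5, 13.9 and 13.8 CPM and the CKO libraries 15.2, 14.8 and 14.3 CPM. In MZ B cells the control libraries held 12.3, 13.4 and 14.3 CPM and the CKO libraries 15.3, 14.9 and 14.3 CPM. The FO groups overlapped, and in MZ B cells the highest control and the lowest CKO library were both at 14.3 CPM. The log2 fold change was 0.08 (95% interval -0.13 to 0.29, adjusted p = 0.9995) in FO and 0.15 (-0.10 to 0.41, adjusted p = 1) in MZ B cells. The intervals reach from -0.13 to 0.41 on the log2 scale, so larger genotype differences of Dnmt3b lie outside them. An antisense gene, Dnmt3bos, overlaps Dnmt3b, but it had 141 reads over all 12 libraries.

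**Figure D1:**
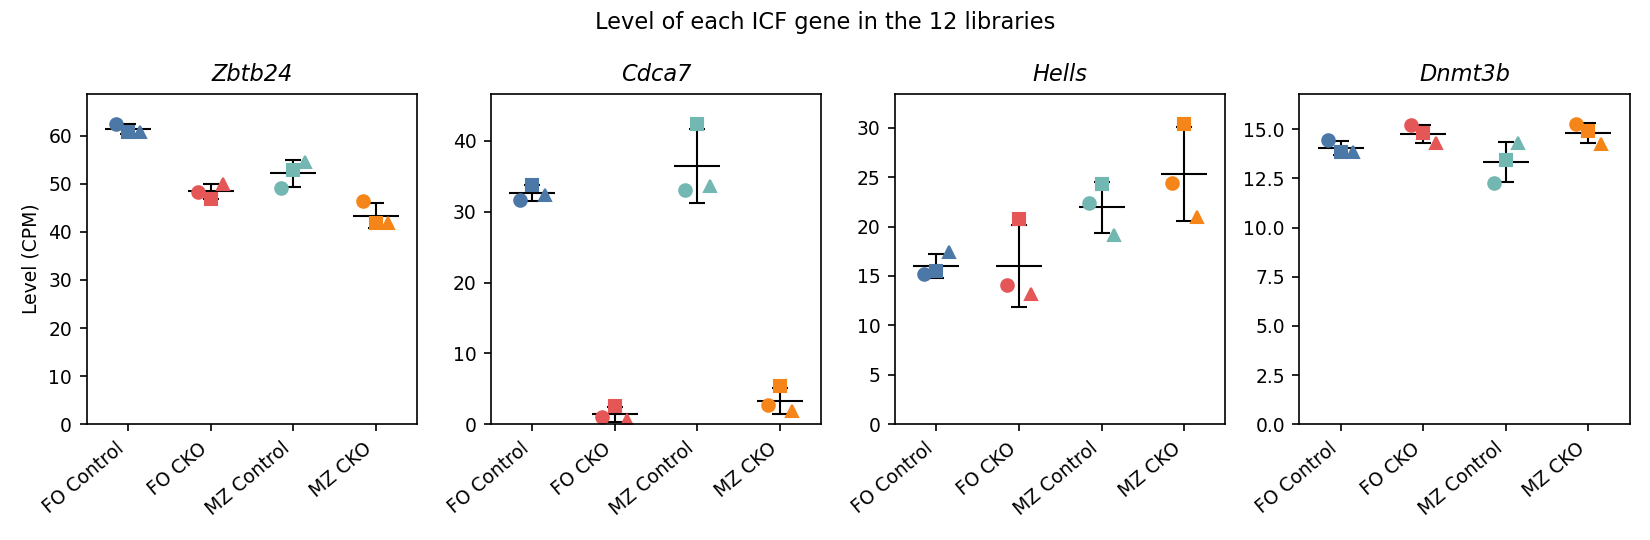
Level of each of the 4 genes in CPM (linear axis from 0) by group. Circles, squares and triangles are replicates 1, 2 and 3, and bars are the mean and SD of 3 libraries. The CKO libraries of Cdca7 lie between 0.550 and 5.37 CPM, below all control libraries, which lie between 31.6 and 42.4 CPM.

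**Figure D2:**
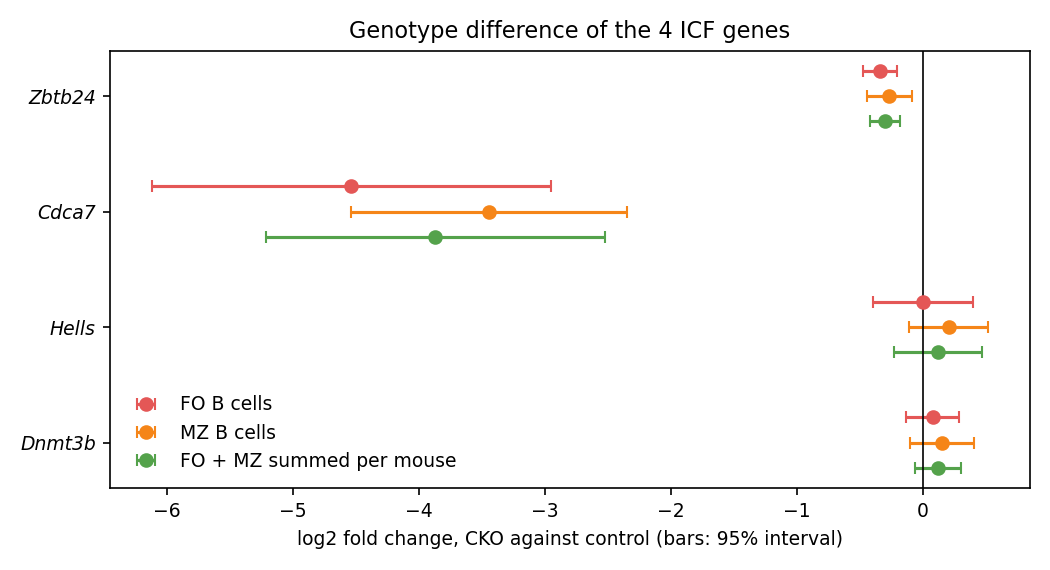
Log2 fold change of CKO against control (x axis) for each of the 4 genes, with the 95% interval of edgeR's quasi-likelihood fit as bars, in FO, in MZ and in FO and MZ counts summed per mouse. The intervals of Zbtb24 and Cdca7 lie below 0, and those of Hells and Dnmt3b include 0.

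Of the 4 genes, 0 passed at an adjusted p under 0.05 in FO or MZ B cells by edgeR's quasi-likelihood test. Zbtb24 and Cdca7 had an unadjusted p under 0.05 in both, and DESeq2 called both in FO and Cdca7 in MZ. Among all genes, 0.09% passed in FO (16 of 17777) and 0.0793% passed in MZ B cells (14 of 17658). A fit with a block for the replicate number called 25 genes in FO, and again none of the 4. The libraries of the genotypes did not overlap, with CKO lower, for Zbtb24 and Cdca7 in each cell type. The same held for 4.64% of all genes in FO and 3.96% in MZ B cells. For such a gene the exact two-sided permutation test gives p = 0.1, the smallest it can reach with 3 libraries against 3. Summed T cell markers were also lower in the FO CKO libraries (169 to 232 CPM) than in the FO control libraries (242 to 277 CPM), 0 of 7 passed in edgeR, 2 had an unadjusted p under 0.05 and DESeq2 called 1. Summed neutrophil markers were 72.8, 186 and 117 CPM in FO control and 117, 386 and 174 CPM in FO CKO libraries. The MZ libraries held 44.9, 136 and 57.5 CPM in control and 67.8, 235 and 98.6 CPM in CKO libraries, so the groups overlapped. All 7 neutrophil markers had a log2 fold change above 0, with a median of 0.984 in FO and 0.997 in MZ. None passed in edgeR, 1 in FO and 0 in MZ had an unadjusted p under 0.05, and DESeq2 called 1 in FO and 0 in MZ. The part of T cell and neutrophil RNA in the results was not tested.

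Adding the FO and MZ counts of each mouse gave 1 value per mouse. Zbtb24 then had a log2 fold change of -0.30 (95% interval -0.42 to -0.18, adjusted p = 0.2356) and Cdca7 of -3.87 (-5.22 to -2.52, adjusted p = 0.4447), the second lowest of 19579 genes. Hells was at 0.12 (-0.23 to 0.47) and Dnmt3b at 0.12 (-0.06 to 0.30), each with an adjusted p of 0.9995. None of the 4 passed in edgeR, where Zbtb24 and Cdca7 had an unadjusted p under 0.05, and DESeq2 called both. Of all genes, 0.0817% passed. Without mouse 1514 Cdca7 passed at -4.50 (adjusted p = 0.001435).

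Per kilobase of exon (RPKM, the CPM divided by the length in kilobases of the union of annotated exons), Zbtb24 and Cdca7 stood above Hells and Dnmt3b in control cells. In FO control libraries the mean was 12.0 ± 0.191 for Zbtb24, 10.2 ± 0.348 for Cdca7, 2.75 ± 0.0687 for Dnmt3b and 2.22 ± 0.165 for Hells (SD, n = 3). No neighbours in that order overlapped. In MZ control libraries Cdca7 (11.4 ± 1.63) and Zbtb24 (10.2 ± 0.536) overlapped, and so did Hells (3.04 ± 0.361) and Dnmt3b (2.61 ± 0.201). In CKO libraries Cdca7 was last, at 0.437 ± 0.344 RPKM in FO and 1.04 ± 0.567 RPKM in MZ B cells. Zbtb24 led there with 9.45 and 8.46 RPKM, and Hells and Dnmt3b overlapped in both CKO groups. The length chosen moved these levels. With the longest transcript in place of the exon union, the FO control means were 21.6 RPKM for Zbtb24 and 13.5 RPKM for Cdca7, and Zbtb24 was at 17.0 in FO CKO and 15.2 in MZ CKO libraries. The order was the same in 3 of 4 groups. In MZ control libraries it changed, with Zbtb24 at 18.3 and Cdca7 at 15.02 RPKM.

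Zbtb24 and Hells differed between MZ and FO B cells of control mice in opposite directions. Zbtb24 was lower in MZ, by edgeR's quasi-likelihood test at a log2 fold change of -0.24 (95% interval -0.38 to -0.09, adjusted p = 0.01961), and the MZ level was 0.785, 0.870 and 0.895 of the FO level in the 3 mice. Hells was higher in MZ at 0.45 (0.22 to 0.69, adjusted p = 0.008347), with MZ to FO ratios of 1.48, 1.56 and 1.1. Cdca7 (0.16, adjusted p = 0.2663) and Dnmt3b (-0.08, adjusted p = 0.643) did not pass. So 2 of the 4 genes passed where 27.9% of all genes did (4977, or 7805 with the mouse as a block), and 2 had groups that did not overlap where 42.3% of all genes had. The Zbtb24 call was lost when FO control replicate 1 (adjusted p = 0.06088), FO control replicate 2 (0.05388) or MZ control replicate 1 (0.08291) was left out. The Hells call was lost in 1 fit of all 12 libraries (adjusted p = 0.07832). The main test did not use that the FO and MZ library come from the same mouse. With the mouse as a block Zbtb24 and Hells still passed.

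In CKO mice Cdca7 and Hells were higher in the MZ than in the FO library of every mouse. The MZ to FO ratio of Cdca7 was 2.74, 2.03 and 3.41 in CKO mice, against 1.05, 1.25 and 1.04 in control mice. For Hells it was 1.73, 1.47 and 1.60. Without a block, edgeR's quasi-likelihood test passed neither, at 1.26 (95% interval -0.46 to 2.98, adjusted p = 0.2917) for Cdca7 and 0.67 (0.17 to 1.16, adjusted p = 0.07189) for Hells. With the mouse as a block both passed, Cdca7 at 1.34 (SE 0.202, adjusted p = 6.516e-06) and Hells at 0.68 (SE 0.0889, adjusted p = 7.306e-07). Without a block these values depended on mouse 1514. Leaving out its FO library gave 2.10 for Cdca7 (adjusted p = 0.04919) and 0.90 for Hells (adjusted p = 0.00639). Leaving out its MZ library gave 0.73 (adjusted p = 0.5526) and 0.51 (adjusted p = 0.1704). Without each library in turn the adjusted p reached 0.5558 for Cdca7 and 0.2248 for Hells. Zbtb24 (-0.15, adjusted p = 0.2147) and Dnmt3b (0.01, adjusted p = 0.9574) did not pass. In this comparison 18.3% of all genes passed (3243, or 6333 with the block), and 36.4% had groups that did not overlap, among them Zbtb24 and Hells. Hells and Zbtb24 had an unadjusted p of 0.01542 and 0.077, and DESeq2 called 1 of the 4, Hells (adjusted p = 0.007922).

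**Figure D3:**
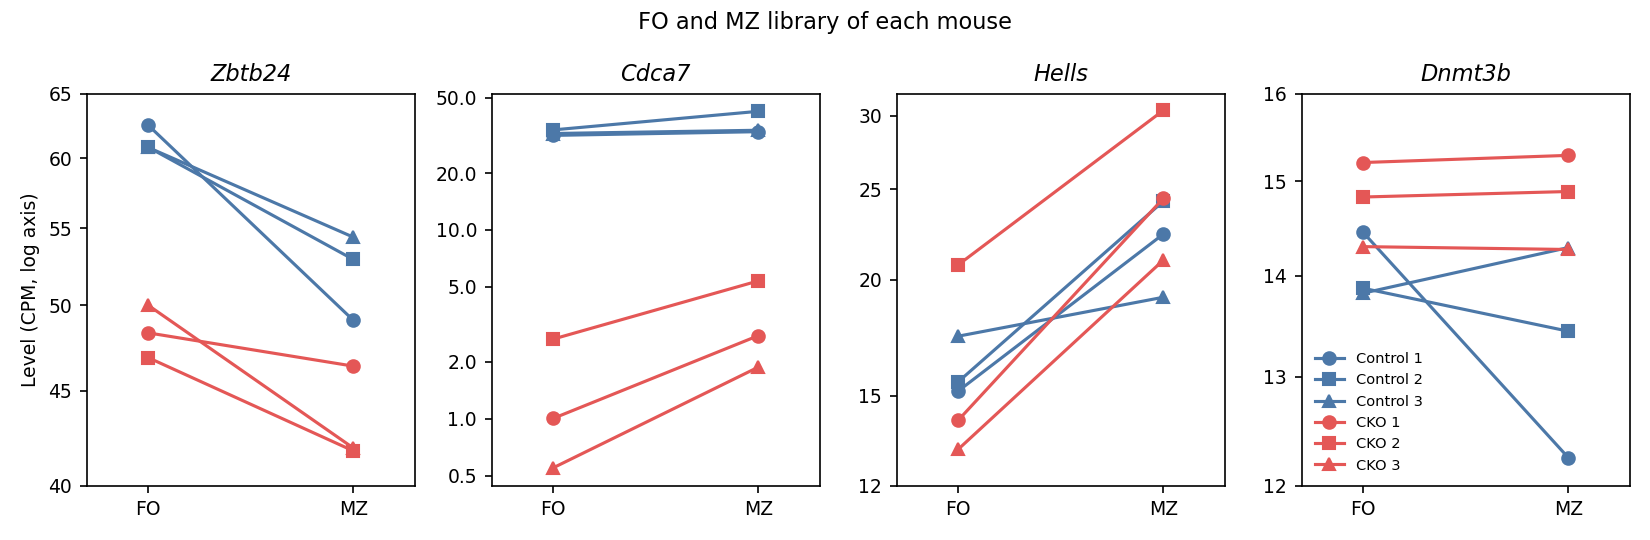
Level of each of the 4 genes in the FO and MZ library of each mouse, in CPM on log axes that do not start at 0. Blue lines are control and red lines CKO mice, and marker shapes are replicates. The MZ to FO ratio of Cdca7 is 2.03 to 3.41 in CKO mice and 1.04 to 1.25 in control mice.

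The difference between the genotype effects in MZ and FO was tested in all 12 libraries. For Cdca7 it was 1.096 on the log2 scale (95% interval -0.50 to 2.69, adjusted p = 1), and with the mouse as a block 1.14 (SE 0.172, adjusted p = 0.002535), so the block changed the call. Zbtb24 (0.08), Hells (0.21) and Dnmt3b (0.08) were at an adjusted p of 1 without the block. Of all 18546 genes, 0% passed in edgeR without the block, 238 had an unadjusted p under 0.05, and DESeq2 called 0. With the block 4 genes passed. The Cdca7 difference rests on 171 reads in the FO CKO group and 390 in the MZ CKO group.

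Within groups, the levels of Cdca7 and Hells varied together with those of genes of cell division. The summed level of 15 mitosis genes was 145, 517 and 118 CPM in the FO CKO libraries and 309, 707 and 235 CPM in the MZ CKO libraries. In the controls it was 205, 262 and 206 CPM in FO and 238, 400 and 204 CPM in MZ B cells. The order of the CKO mice (1514, then 1512, then 2002) was thus that of both Cdca7 and Hells. After subtracting group means on the log2 scale, Pearson's r over 12 libraries was 0.966 between Cdca7 and the mitosis sum, 0.938 between Hells and the mitosis sum, and 0.930 between Cdca7 and Hells. Without mouse 1514 (10 libraries) r was 0.785, 0.705 and 0.666. In the same order r was 0.983, 0.994 and 0.988 in the 6 CKO libraries, and 0.950, 0.638 and 0.598 in the 6 control libraries. The r of Hells was thus lower in controls, where the mitosis sum also spanned a smaller range. Between the highest and lowest library that sum differed 1.28 times in FO and 1.96 times in MZ controls. In the CKO groups it differed 4.37 times in FO and 3.01 times in MZ, and the difference between the r values was not tested. The FO and MZ libraries of a mouse are not independent points, and the relation to mitosis genes was described after the values had been seen. For Zbtb24 and the mitosis sum r was -0.371, and for Dnmt3b it was 0.0842.

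Set against the mitosis genes, Cdca7 varied less among the CKO mice. Per 100 CPM of mitosis genes, Cdca7 was at 15.4, 12.9 and 15.8 CPM in FO control and 0.692, 0.511 and 0.465 CPM in FO CKO libraries. For MZ B cells the same ratio was 13.9, 10.6 and 16.5 CPM in control and 0.891, 0.760 and 0.798 CPM in CKO libraries. The highest CKO library then exceeded the lowest by 1.49 times in FO and 1.17 times in MZ, where the levels themselves differed 4.80 and 2.86 times. In the controls the ratio varied more than the level, 1.22 times against 1.07 in FO and 1.56 times against 1.28 in MZ. The mean ratio in CKO libraries was 3.78% of that in controls in FO and 5.97% in MZ. All 15 mitosis genes had a log2 fold change above 0 in both cell types, with a median of 0.206 in FO and 0.541 in MZ. A higher sum in CKO libraries lowers this ratio. None of the 15 passed in edgeR in FO or MZ, 0 had an unadjusted p under 0.05 and DESeq2 called 0. Erythroid and neutrophil markers were highest in the same mouse 1514, and their part was not tested.

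**Figure D4:**
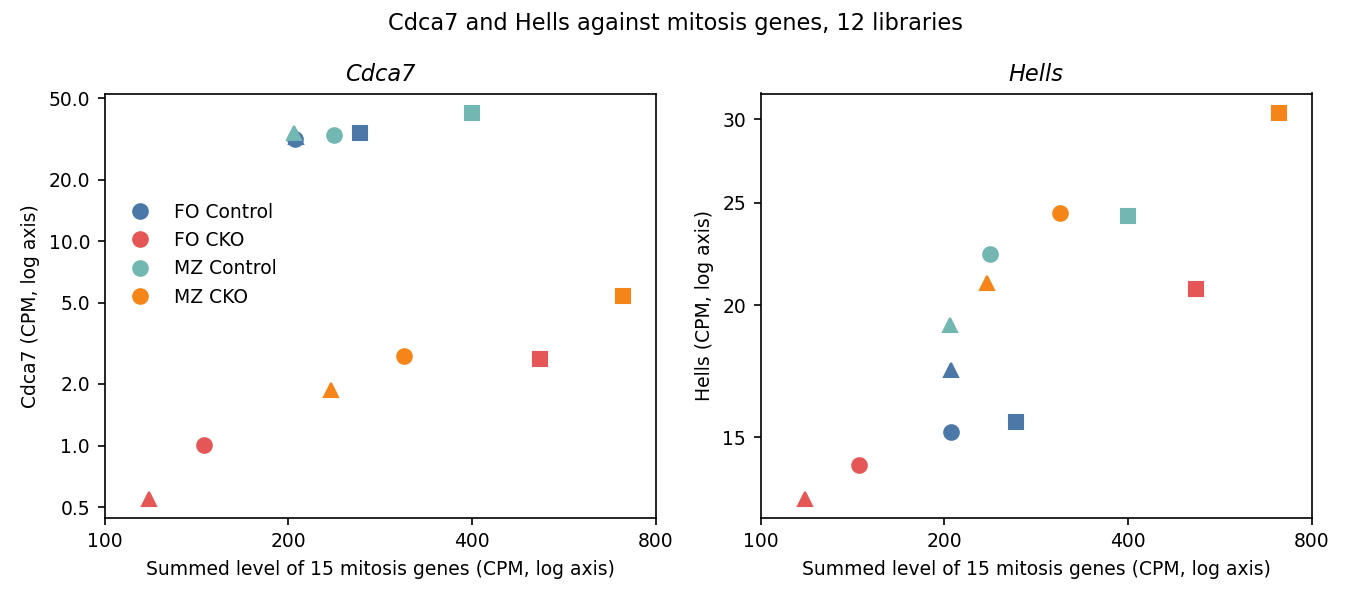
Cdca7 (left) and Hells (right) in CPM against the summed level of 15 mitosis genes in CPM, all on log axes, in 12 libraries. Colours are groups, and circles, squares and triangles are replicates 1, 2 and 3. The Cdca7 points of both CKO groups form a line of their own far under the control points, and the Hells points of both genotypes share 1 range.

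The genes most like each of the 4 were found by Pearson's r of log2 CPM over the 12 libraries, among 13502 genes. For Zbtb24 these were Il10ra (r = 0.968), a chain of the interleukin 10 receptor, then Abraxas2 (0.902) and Hr (0.897). Il10ra held 347 ± 7.51 and 314 ± 8.94 CPM in FO control and CKO libraries and 325 ± 8.48 and 293 ± 6.74 CPM in MZ libraries (SD, n = 3). For Cdca7 they were Cdc40 (0.962), a splicing factor, Taf6 (0.962), part of the basal transcription factor TFIID, and Dtnb (0.937), which encodes dystrobrevin beta. For Hells they were Rnaseh2b (0.965), a subunit of ribonuclease H2, Nusap1 (0.964), a spindle protein, and Pask (0.960). For Dnmt3b they were Nop9 (0.912), Nln (0.838) and Zfp444 (0.837). These correlations include the differences between genotypes and cell types, and libraries of 1 mouse are not independent.

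With group means removed, the genes nearest to Cdca7 were Ticrr (0.984), a regulator of replication origins, Pask (0.983) and the spindle checkpoint gene Bub1b (0.980). Nearest to Hells were Pola1 (0.982), the catalytic subunit of DNA polymerase alpha, Acot7 (0.979) and Depdc1b (0.978). For Zbtb24 they were Gimap1 (0.966), Tgfbr2 (0.947) and Snx9 (0.944), and for Dnmt3b Syngr2 (0.934), Dpy19l3 (0.918) and March2 (0.914). These values are over 12 libraries, and none is given without mouse 1514. Leaving that mouse out lowered the r of Cdca7 with the mitosis sum from 0.966 to 0.785, and Bub1b is 1 of the 15 mitosis genes. With group means left in, the 4 genes themselves correlated at 0.681 for Zbtb24 with Cdca7 and at 0.141 for Cdca7 with Hells. The lowest of these values was -0.624, for Cdca7 with Dnmt3b. After group means were removed, the same pairs were at -0.329, 0.93 and 0.228.

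Of 6 genes besides Cdca7 that are reported as ZBTB24 targets in other cells, 4 were lower in CKO libraries in FO and 3 in MZ B cells by edgeR's quasi-likelihood test, and none passed as higher. Among all genes tested, 0.0338% passed as lower in FO (6 of 17777) and 0.0227% in MZ B cells (4 of 17658). The list was chosen with earlier results of these data known, so its share beside that of all genes is not an independent test. An unadjusted p under 0.05 was found for 5 of the 6 in FO and 4 in MZ, and DESeq2 called 4 in each. The median log2 fold change was -0.758 in FO and -0.728 in MZ B cells, against 0.00564 and -1.93e-05 over all genes tested. Axin2, which encodes a scaffold of the complex that degrades beta-catenin, fell in FO B cells from 7.96, 7.24 and 8.83 CPM to 0.692, 1.28 and 0.524 CPM (log2 fold change -3.26, adjusted p = 0.004637). Axin2 in MZ B cells was at -2.71 (adjusted p = 0.2278) and did not pass. Taf6 fell in FO from 37.7, 38.4 and 34.1 CPM to 17.8, 16.7 and 17.4 CPM (-1.08, adjusted p = 0.000606), and in MZ by 0.78 on the log2 scale (adjusted p = 0.005723). Cdc40 fell by 0.82 in FO (adjusted p = 0.003909) and by 0.70 in MZ (0.02479). Ostc, a subunit of the oligosaccharyltransferase complex, fell by 0.70 in FO (0.04394) and by 0.75 in MZ (0.02459). Camkmt lay above control, at 0.44 in FO (unadjusted p = 0.03338) and 0.24 in MZ, and Rnf169 was at -0.12 and 0.01. Neither passed in FO or MZ B cells.

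As percent of the control mean, the targets spanned different ranges. Cdca7 was at 3.08, 8.10 and 1.69% in FO CKO and 7.57, 14.7 and 5.16% in MZ CKO libraries. Axin2 was at 8.64, 16 and 6.54% in FO CKO and at 5.61, 24.2 and 16.2% in MZ CKO libraries. In both genes mouse 1514 held the most. Taf6 was at 48.5, 45.6 and 47.4% in FO CKO and at 60.1, 56.2 and 58.2% in MZ CKO libraries, with mouse 1514 lowest. Zbtb24 was at 78.7, 76.4 and 81.5% in FO CKO and at 89.0, 80.1 and 80.4% in MZ CKO libraries. Mouse 1514, with the highest Cdca7 level of the CKO mice, thus had the lowest Zbtb24 level in FO and one close to mouse 2002 in MZ B cells.

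**Figure D5:**
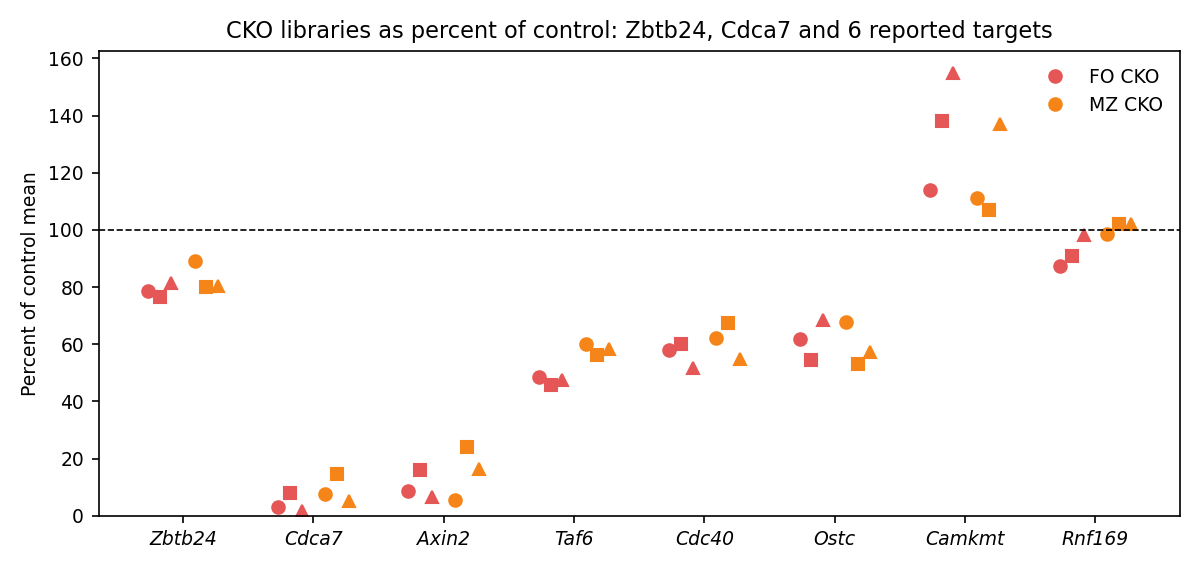
Each CKO library as percent of the control mean of its cell type (y axis from 0) for Zbtb24, Cdca7 and 6 reported ZBTB24 targets. The dashed line is the control mean, colours are FO and MZ, and circles, squares and triangles are replicates 1, 2 and 3. Cdca7 and Axin2 lie between 1.69 and 24.2%, Taf6, Cdc40 and Ostc between 45.6 and 68.6%, and Camkmt lies above 100%.

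The letters CAGGACCT lay in promoter windows of other genes called lower in CKO mice. In FO B cells 6 genes were lower, 5 of them with a window, and 4 of these 5 (Cdc40, Dtnb, Rnf187 and Taf6) held CAGGACCT. Of the 248 tested genes with the motif 1.61% were lower, and of the 10960 tested genes with a window but no motif 0.00912% were. For MZ B cells 4 genes were lower, 3 of them with a window, and Ostc was the one without. Lower were 3 of 241 genes with the motif (1.24%) and 0 of 10934 with a window but no motif. With the longer form CCAGGACCT, 3 of 80 tested genes were lower in FO and 2 of 79 in MZ B cells. The shorter form had been chosen after the Cdca7 sequence was seen, so these shares are a description. Adk, which also holds the motif, was higher in MZ B cells (0.79 on the log2 scale, adjusted p = 0.04272). Most genes with the letters did not pass, with a median log2 fold change of 0.00197 in FO B cells. Among the reported targets, Axin2 and Rnf169 had none in their windows, and for Ostc no window was at hand. Camkmt, which lay above control, had 2 matches, at positions 17 and 42 after the start. A stretch of 30 bases around 1 match in each gene is set beside Cdca7, in each gene's own direction of transcription on GRCm38.p6, with the motif in capitals (AGGTCCTG where it lies on the other strand). They come from chr2:72476119-72476148 (plus strand) for Cdca7, chr5:138187222-138187251 (minus) for Taf6, chr10:40883286-40883315 (minus) for Cdc40, chr12:3572875-3572904 (plus) for Dtnb and chr11:58938948-58938977 (minus) for Rnf187.

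Cdca7: atcttagctggCAGGACCTgcgtcccggcg
Taf6: ttggcttctgcCAGGACCTactcctgtcag
Cdc40: tttaatcaacgAGGTCCTGaaagttacaaa
Dtnb: gcgaaggcggcAGGTCCTGgcagagggcag
Rnf187: tgcgcagctgcCAGGACCTggacgtcagag

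Taf6, Dtnb and Rnf187 have the longer form CCAGGACCT here, and the Cdca7 and Cdc40 stretches do not. Dtnb fell by 0.57 on the log2 scale in FO (adjusted p = 0.01309) and by 0.56 in MZ B cells (0.02459). Rnf187, a ubiquitin ligase, fell by 0.85 in FO (0.001121) and was at -0.42 in MZ B cells (0.2281).

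In the rest of the DNA methylation machinery no gene was called different by genotype in either cell type. Cdca7 did not pass edgeR's quasi-likelihood test either, so not passing does not show equal levels. By edgeR's quasi-likelihood test 0 genes passed, 0 had an unadjusted p under 0.05 and DESeq2 called 0, in FO and in MZ, among 4 genes of maintenance methylation, 4 of demethylation and 8 readers of methylated DNA. The same held for 7 relatives of CDCA7 and HELLS and for Dnmt3a, the 1 tested gene of 3 in the de novo list. Dnmt1, the maintenance methyltransferase, was at -0.09 in FO and 0.18 in MZ B cells on the log2 scale. Uhrf1, which brings DNMT1 to replicated DNA, was at 0.19 and 0.57, with SEs of 0.545 and 0.460. Dnmt3a, the other active de novo methyltransferase of B cells, was at -0.03 and -0.01. Cdca7l, the paralog of Cdca7, was at 0.23 in FO (11.4 ± 0.691 CPM in control, 13.3 ± 2.71 CPM in CKO libraries) and at 0.25 in MZ B cells (22.9 ± 2.38 and 27.3 ± 3.599 CPM). Adjusted p-values of these genes were 0.9995 in FO and 1 in MZ B cells.

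Between MZ and FO B cells of control mice, several genes of these lists differed too. Cdca7l was higher in MZ by 1.01 on the log2 scale (adjusted p = 2.854e-05) and Tet1, which oxidises methylcytosine, by 0.86 (0.002674). Dnmt1 fell by 0.45 from FO to MZ (0.002493) and Tet3 by 0.53 (0.0001198). In all, 1 of 4 maintenance genes, 2 of 4 demethylation genes, 4 of 8 readers and 3 of 7 relatives passed, beside the 27.9% of all genes given above.

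Of 14 germline genes that DNA methylation keeps silent, 3 passed the filter on low counts in FO and 2 in MZ B cells. None of these passed the edgeR test, 0 had an unadjusted p under 0.05 and DESeq2 called 0. Added together, the 14 reached 0.498 to 1.496 CPM in FO CKO libraries, under the FO controls (2.02 to 2.15 CPM). The MZ sums, also without overlap, were 1.08 to 1.89 CPM for CKO mice and 2.23 to 2.83 CPM for controls. Such a gap with CKO lower was found for 4.64% of all genes tested in FO and 3.96% in MZ. Those shares are of single genes that passed the filter, which is not the same measure as a sum of 14 genes. Sycp1 had the highest mean of the 14 in every group. Its mean fell from 1.178 to 0.457 CPM in FO and from 1.152 to 0.619 CPM in MZ, and its lowest CKO library was at 0 in each. Tuba3a did not fall in FO (0.275 and 0.280 CPM), so the sums do not show a fall across all 14 genes. Between 5 and 8 of the 14 were at 0 in each library, and the sums were not tested. Among 18 genes of S phase, 0 passed, 0 had an unadjusted p under 0.05 and DESeq2 called 0, in both cell types.

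The nearest tested genes on each side of the 4, some of them far away, did not pass in FO or MZ B cells. Beside Cdca7, Map3k20 lies 33549 bases away and was at a log2 fold change of -0.01 in FO and -0.09 in MZ. Sp3, the nearest tested gene on the other side, lies 449534 bases away and was at -0.09 and 0.00. Beside Zbtb24, Mical1 lies 10740 bases away and was at 0.01 in FO and 0.00 in MZ B cells. Ak9, 15849 bases away on the other side of Zbtb24, had 323 reads over all libraries. It was at 0.74 in FO and -0.28 in MZ B cells. On the 2 sides of Hells, Tbc1d12 lies 10992 bases and Pdlim1 1250122 bases away, and both were between -0.07 and 0.32 on the log2 scale. Commd7 (16669 bases) and Mapre1 (53544 bases) on the sides of Dnmt3b were between -0.06 and 0.06.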

How the data were processed

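RNA from sorted FO and MZ B cells was sequenced with the Illumina TruSeq RNA kit, per the labels' protocols. The deposited file holds raw read counts per Ensembl gene without normalization. The authors used TopHat, HTSeq and DESeq2 on GRCm38, per the submitters' processing notes; versions, annotation release and strand setting are not given in the sources used here. The 5 summary entries of HTSeq (reads without a gene) entered neither library sizes nor tests. Symbols and coordinates came from GENCODE M21 (45229 of 46078 genes matched), sequences from RefSeq on GRCm38.p6.

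In R 4.3.3, edgeR 4.0.16 was run with filterByExpr, TMM scaling and the quasi-likelihood F test with robust dispersion, two-sided, on the libraries of each comparison. Adjustment was by Benjamini-Hochberg across every tested gene, with 0.05 as the threshold. SEs were derived from the log2 fold change and its F statistic. Levels are CPM with TMM over all 12 libraries, and log2 CPM in exact permutation tests has a pseudocount of 0.5. The alternatives were DESeq2 1.42.0, limma-voom (limma 3.58.1), no robust dispersion, other scalings, no filter, a replicate block, 1 fit of all libraries and leaving out each library. The edgeR fit was tested on simulated data.

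Deviations of same-numbered samples from group means correlated at 0.510 to 0.747 between FO and MZ, where the animal number pairs them. Control and CKO replicates with the same number are different animals, and the labels name no shared litter or day. Across genotypes, the FO libraries of replicates 1 to 3 gave r values of 0.129, 0.386 and 0.383. The MZ libraries gave -0.0954, 0.413 and 0.402. A rule that every r exceed 0.1 was met in FO but not in MZ, for the same 6 mice. It therefore gives no basis for pairing them. Across genotypes, the replicate number entered only the alternative fits with a replicate block.

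The 4 genes and the 18 lists (132 genes) were chosen with earlier results of these data known. From the lists, the reported targets that passed by genotype are named, with some members that did not pass. Of the members that passed between MZ and FO only some are named. Neighbours are the nearest tested genes, and like genes are the 3 with the highest r. The animal numbers give 6 mice, each with an FO and an MZ library, so p-values within a cell type measure the spread between 3 mice per genotype.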

Additional observations from a re-analysis of the deposited data

Results flagged for a closer look

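The genotype effect on Cdca7 differed between MZ and FO B cells by 1.14 on the log2 scale when each mouse was used as a block (SE 0.172, adjusted p = 0.002535, edgeR's quasi-likelihood test of the difference in 12 libraries). Without the block the adjusted p was 1, at 1.096. The MZ to FO ratio was higher in 3 of 3 CKO mice (2.03 to 3.41) than in any control mouse (1.04 to 1.25). Mitosis genes were also higher in the MZ than in the FO library of each CKO mouse (309 against 145, 707 against 517 and 235 against 118 CPM), and their part in the difference was not tested.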

How the results depend on the processing

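The direction of Zbtb24 and Cdca7 in both genotype comparisons was the same under every alternative run, while Cdca7 passed under some and not others. In FO B cells Cdca7 passed with DESeq2 (-4.54), limma-voom (-4.82), edgeR without robust dispersion (-4.54) and 1 fit of all 12 libraries (-4.54, adjusted p = 0.02376); leaving out 1 library gave -5.36 to -4.16. In MZ B cells it passed with DESeq2 (-3.44), limma-voom (-3.57), edgeR without robust dispersion (-3.45) and the replicate block (-3.54, adjusted p = 0.000799, 57 genes passing instead of 14); leaving out 1 library gave -3.96 to -3.16. In summed counts it passed with DESeq2 (-3.87), limma-voom (-4.05) and edgeR without robust dispersion (-3.87); leaving out 1 mouse gave -4.50 to -3.56. Adjusted p for Cdca7 ranged from 6.384e-10 to 0.9997 in FO and from 5.062e-11 to 1 in MZ. Zbtb24 passed in FO with DESeq2 (-0.34) and no low count filter (-0.34, adjusted p = 0.01023), and in summed counts with DESeq2 (-0.30, adjusted p = 0.0007923). The FO difference of Hells, near 0, turned negative with limma-voom (-0.0301), library size alone (-0.00112), no low count filter (-0.00155), the replicate block (-0.0256) and 1 fit of all libraries (-0.00283), and leaving out 1 library gave -0.23 to 0.13. In summed counts leaving out 1 mouse gave -0.0773 to 0.24 for Hells. Dnmt3b in MZ against FO of CKO mice was -0.0676 with library size alone and -0.0206 to 0.0376 with 1 library left out.

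Of the 4 genes, the number that passed in FO was 0, but 2 with DESeq2 and 1 each with limma-voom, no robust dispersion, no filter and 1 fit of all libraries (0 to 1 with 1 library left out). In MZ it was 0, but 1 each with DESeq2, limma-voom, no robust dispersion and the block (0 to 1). In summed counts it was 0, but 2 with DESeq2 and 1 each with limma-voom and no robust dispersion (0 to 1). In MZ against FO it was 2 in control mice, but 1 in 1 fit of all libraries (1 to 2), and 0 in CKO mice, but 2 with the block and 1 each with DESeq2, library size alone, no filter and 1 fit of all libraries (0 to 2). For the difference between genotype effects it was 0, but 1 with the block (0 with 1 mouse left out). The number of all genes passing was 16 in FO, 40 with DESeq2, 140 without the filter and 11 to 31 with 1 library left out. In MZ it was 14, 38 with DESeq2, 7 with limma-voom, 95 without the filter and 5 to 34 with 1 library left out. In summed counts it was 16, 45 with DESeq2, 42 without the filter and 6 to 35 with 1 mouse left out. The block changed no other call of the 4 genes. Fits with 1 library left out of 3 assume that the remaining libraries vary like the rest. Cdca7 had few reads in the FO CKO libraries, 21 to 105, and the part of read depth in its calls was not tested. The cause of these changes was not tested.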
